A study of Mus musculus with 4 samples.

Results

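The nuclear factor I (NFI) family was examined across 4 Affymetrix arrays of mouse cells, 1 array per kind of cell. Its members are Nfia, Nfib, Nfic and Nfix, with gene IDs 18027, 18028, 18029 and 18032 in the platform's annotation. All probe sets whose single gene symbol was a member were taken, which gave 23 probe sets for 4 genes, of 18193 genes measured. The members were chosen by their signals: Nfia and Nfib stood apart on the granule cell array, so those values are described and support nothing.

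The study derived motoneurons from ES cells. The granule array held cerebellar granule cells of mice at postnatal day 6. The Sox1 array held neural stem cells sorted for Sox1, a transcription factor of neural progenitors, and the labels do not say how they were obtained. The third array is labelled as cells sorted for GFP from an HB9 reporter (HB9 is the protein of the motor neuron gene Mnx1). The sort is dated to differentiation day 8. The medium held purmorphamine (0.2 uM), retinoic acid (0.1 uM) and Sonic hedgehog, dated from day 5 until day 9, so the stated days conflict. The ES array held undifferentiated cells, which the labels describe as HB9 reporter ES cells kept on mitomycin C-treated fibroblasts with 1000 U/ml leukemia inhibitory factor. Mouse strain and the number of animals, sorts or clones behind each array were not given in the labels used here.

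NFI proteins bind DNA as dimers at a palindrome, through an amino-terminal domain that the family shares. In the mouse nervous system Nfia and Nfib promote the onset of glial differentiation, and Nfix restrains the stem cell state of neural progenitors. In cerebellar granule neurons NFI activity is known for its part in axon outgrowth, migration and dendrite formation. Nfic is best known for tooth root formation in the mouse.

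The labels were checked against marker genes. On the granule array 12 of 14 measured granule neuron markers were detected, but so were 12 of 12 astrocyte, 8 of 8 oligodendrocyte and 7 of 8 Purkinje cell and interneuron markers. The HB9-GFP-labelled array had 12 of 12 pluripotency markers detected, with a median signal of 8867.3, against 8056.6 on the ES array. Of 12 motor neuron markers 1 was detected there, Olig2, and Mnx1 itself was undetected, at 15.9. The values therefore run against that label, and the name HB9-GFP-labelled is kept for what the array is called, not for what it holds. The Sox1 array had 12 of 12 neural stem cell markers detected, with Sox1 itself at 2262.1. It also had 7 of 12 pluripotency markers detected, with Pou5f1 at 514.3 and Dppa5a at 3928.3. These 7 include Sox2, which is also on the neural stem cell list. A gene was called detected at a signal of 157.5 or more, or 1 log2 unit over a low level of 78.8 that was set from the medians of the arrays. The number of genes detected was between 9329 and 9558 of 18193 on the 4 arrays, with 9383 on the Sox1 array. The 7 of 12 pluripotency markers on the Sox1 array are near that share, so nothing is read from their count. The ratio of 3' to 5' control probe sets, a sign of RNA quality, lay between 2.29 and 5.08 for actin and between 1.37 and 3.68 for Gapdh, and was highest on the Sox1 array for both.

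The DNA element bound by NFI proteins has the letters TTGGC, then 5 bases of any kind, then GCCAA, and TTGGC is the core of each arm. Since the family's members were bright together on the granule array, their promoters are shown with every TTGGC or GCCAA in capitals. GCCAA is the same core on the other strand. RefSeq windows of GRCm38.p6 matched Nfia, Nfic and Nfix, 3 of the 4 members, with 6 windows in all, 4 of them for Nfix. The 250 bases before the start are printed 5' to 3' on the gene's strand for Nfia (chr4:97581693-97581942, plus strand), Nfic (chr10:81427174-81427423, minus strand) and 2 windows of Nfix (chr8:84775829-84776078 and chr8:84772876-84773125, minus strand).
Nfia: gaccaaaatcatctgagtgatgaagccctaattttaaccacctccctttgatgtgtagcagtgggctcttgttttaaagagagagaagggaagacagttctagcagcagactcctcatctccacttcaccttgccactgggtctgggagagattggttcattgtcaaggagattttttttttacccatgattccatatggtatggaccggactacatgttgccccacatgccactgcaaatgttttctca
Nfic: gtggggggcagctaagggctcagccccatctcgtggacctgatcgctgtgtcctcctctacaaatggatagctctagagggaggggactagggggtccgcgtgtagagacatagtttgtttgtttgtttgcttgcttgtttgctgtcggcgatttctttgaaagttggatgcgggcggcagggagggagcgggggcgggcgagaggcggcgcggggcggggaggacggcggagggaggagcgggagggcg
Nfix, first window: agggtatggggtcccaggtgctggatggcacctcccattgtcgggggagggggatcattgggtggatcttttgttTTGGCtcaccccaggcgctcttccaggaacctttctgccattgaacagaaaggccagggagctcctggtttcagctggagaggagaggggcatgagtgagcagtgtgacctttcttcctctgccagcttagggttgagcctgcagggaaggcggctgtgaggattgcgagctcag
Nfix, second window: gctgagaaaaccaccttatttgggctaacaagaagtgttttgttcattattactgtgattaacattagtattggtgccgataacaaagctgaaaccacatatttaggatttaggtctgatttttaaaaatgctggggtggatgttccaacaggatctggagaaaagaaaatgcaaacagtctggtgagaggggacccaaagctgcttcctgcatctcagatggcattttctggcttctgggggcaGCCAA

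The core was found in neither the Nfia nor the Nfic window over their full 300 bases, which run to 50 bases past the start. It was found in 3 of the 4 Nfix windows. The Nfix windows printed are those with the core before the start, and the Nfix windows not printed had none there. In the first Nfix window printed the core begins 175 bases before the start, and in the second GCCAA begins 5 bases before the start. Of all 32851 RefSeq windows of this length 46.7% held the core on either strand. The full palindrome was in 0.0365% of all windows and in none of the 6 member windows. A match to these letters is a description of the sequence only.

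All 4 members were brightest on the granule array. The probe set brightest on average over the arrays stood for each member. A difference was called where the brighter array was detected and the signals differed at least 4-fold, after any signal under 78.8 was raised to that level. Against the ES array 4 of 4 members were called higher on the granule array, beside 7.15% of all genes, and 0 lower, beside 5.09%. Against the Sox1 array 4 of 4 were called higher, beside 3.89% of all genes, and 0 lower, beside 2.14%. Against the HB9-GFP-labelled array 3 of 4 were called higher, beside 7.72%, and 0 lower, beside 5.63%. The choice of the family used these contrasts for Nfia and Nfib, so nothing is read from the counts. The median difference over the 4 members was 7.01 log2 units for granule minus ES and 6.60 for granule minus Sox1, with a median of 0.0 over all genes in both and signals under the low level raised to it, so that some of these values are bounds. There is no replicate error and no test, since each group was 1 array.

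**Figure D1:**
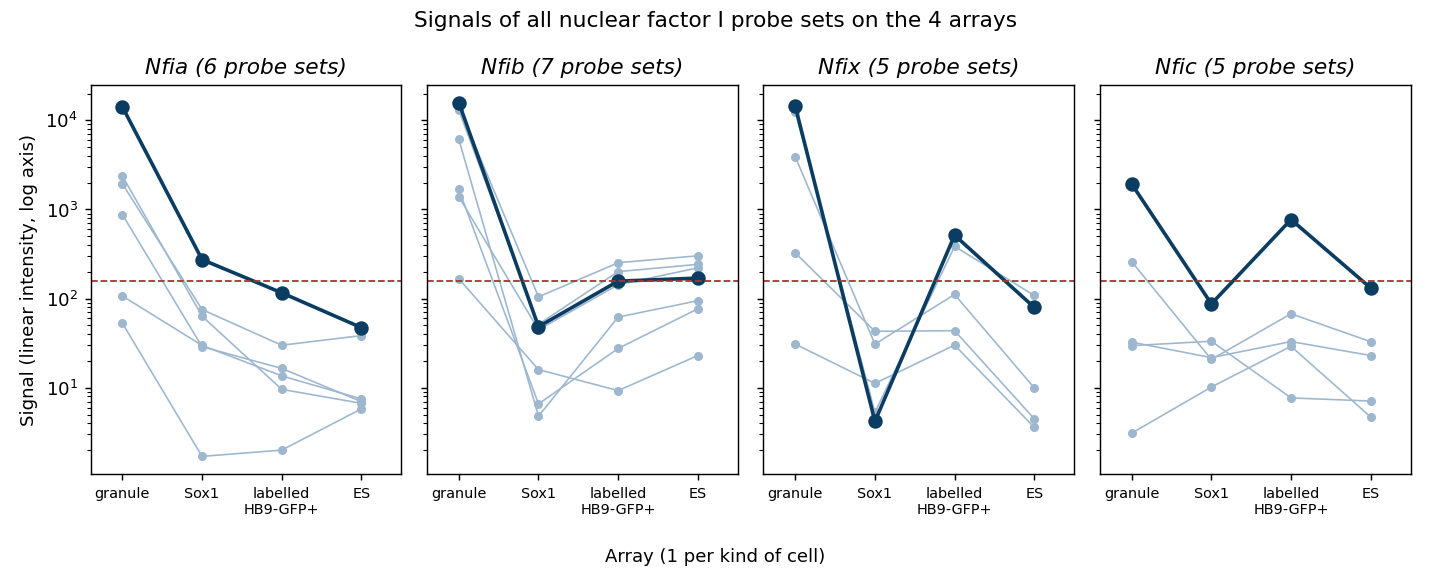
Signals (linear intensity, log axis) of the 23 NFI probe sets on the granule, Sox1, labelled HB9-GFP+ and ES arrays, 1 panel per gene. Dark lines are the representative probe sets, pale lines the others, and lines only join values of the same probe set; the dashed line is the detection level of 157.5. All 17 probe sets detected anywhere were detected on the granule array and brightest there. Sets detected there alone could not be brightest elsewhere, so nothing is read from this count. The 6 sets undetected everywhere, which include those highest on another array, are left out of it. Nfix and Nfic have their next highest points on the HB9-GFP-labelled array.

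Nfia had a signal of 14141.8 on the granule array, 274.4 on the Sox1 array, 116.3 on the HB9-GFP-labelled array and 47.3 on the ES array. It was thus bright on the granule array, just detected on the Sox1 array and undetected on the others. The granule signal was 51.5-fold that of the Sox1 array and at least 180-fold that of the ES array, and this bound was taken against the low level. Of its 6 probe sets 4 were detected on the granule array and 1 on the Sox1 array. The 3 others detected on the granule array read 2375.5, 1938.3 and 877.0 there, and at most 75.5 on any other array. On the Sox1 array the representative set was at least 3.48-fold brighter than on the ES array, which was not enough for a call, since the ES signal lay under the low level and only this bound is known.

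Nfib had a signal of 15805.9 on the granule array, 48.5 on the Sox1 array, 157.1 on the HB9-GFP-labelled array and 169.9 on the ES array. It was 93.0-fold brighter on the granule array than on the ES array and at least 201-fold brighter than on the Sox1 array. The ES signal of this set lay just over the detection level. The gene's other sets detected on both the granule and the ES array gave smaller folds between them, of 53.5, 46.7 and 6.27. Unlike Nfia, its representative set was detected on the ES array and not on the Sox1 array. Of its 7 probe sets 7 were detected on the granule array, 2 on the HB9-GFP-labelled array, 4 on the ES array and 0 on the Sox1 array. The 3 brightest sets besides the representative one read 14138.2, 12961.5 and 6107.8 on the granule array. The 4 sets detected on the ES array read 44.8 to 104.7 on the Sox1 array, below detection, against 169.9 to 302.6 on the ES array, and none of the 4 was called. The 2 sets detected on both the HB9-GFP-labelled and the ES array differed by -0.26 and -0.27 log2 units, within the pooled SD of 0.60 among probe sets of a gene. The dimmest set, at 167.0 on the granule array and 23.0 or less elsewhere, was at least 2.12-fold brighter in each granule comparison and was not called.

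Nfix had a signal of 14346.8 on the granule array, 4.2 on the Sox1 array, 514.9 on the HB9-GFP-labelled array and 79.8 on the ES array. It was bright on the granule array, detected at a lower signal on the HB9-GFP-labelled array and undetected on the Sox1 and ES arrays. The granule signal was 27.9-fold that of the HB9-GFP-labelled array and at least 182-fold that of the Sox1 array. A further probe set made from the same expressed sequence read 12514.0, 5.3, 385.7 and 108.7 on the granule, Sox1, labelled HB9-GFP+ and ES arrays. These 2 sets share their source and are not independent. Of the 5 sets of the gene 4 were detected on the granule array, 2 on the HB9-GFP-labelled array and 0 on the Sox1 and ES arrays. The other sets read 3895.5, 325.7 and 30.9 on the granule array.

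Nfic had a signal of 1929.0 on the granule array, 87.3 on the Sox1 array, 771.2 on the HB9-GFP-labelled array and 131.6 on the ES array. It was detected on the granule array and the HB9-GFP-labelled array and undetected on the others. The granule signal was 2.50-fold that of the HB9-GFP-labelled array, a difference of 1.32 log2 units that was not called. Of its 5 probe sets 3 were undetected on all 4 arrays, with 33.3 as their highest signal. The remaining set read 260.0 on the granule array and at most 67.7 elsewhere. The gene's pattern therefore rests on few probe sets.

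**Figure D2:**
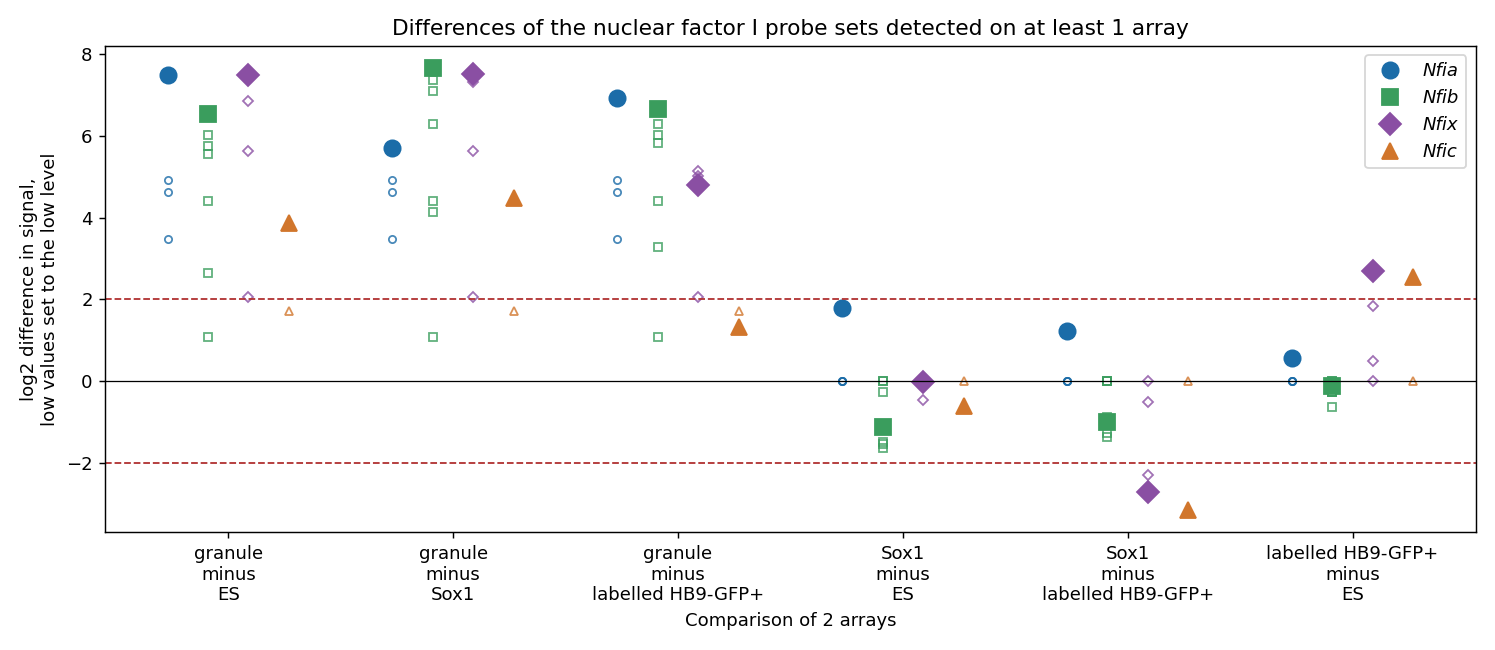
Differences in log2 signal (vertical axis, low values set to the low level) for the 17 NFI probe sets detected on at least 1 array, in the 6 comparisons of 2 arrays. Large filled symbols are the representative probe sets and small open ones the others; dashed lines mark 2 log2 units, the size of a call. The representative sets of 3 members lie between 4.80 and 7.65 in the 3 granule comparisons, and Nfic lies at 1.32 against the HB9-GFP-labelled array. Differences with an undetected array are bounds or rest on a dim signal.

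Set apart here means called higher on 1 array against every other one. On the granule array this held for 3 of 4 members, Nfia, Nfib and Nfix, and for 2.95% of all genes. The margin between the granule array and the next brightest was 6.54 log2 units for Nfib, 5.69 for Nfia and 4.80 for Nfix, the smallest of the 3 set apart, and 1.32 for Nfic, outside the rule. By this margin Nfib ranked 3, Nfia 7, Nfix 29 and Nfic 965 of 18193 genes, a description of what the choice used. Without the HB9-GFP-labelled array, whose markers run against its label, 4 of 4 members were higher than on both the Sox1 and ES arrays, beside 3.21% of all genes. Of the 4 members 0 were set apart on the Sox1 array, beside 0.643% of all genes, 0 on the HB9-GFP-labelled array, beside 0.44%, and 0 on the ES array, beside 0.275%.

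The granule array also carried the markers of glia named above. NFI genes are active in glia too, and in bulk RNA a larger share of cells and more RNA per cell cannot be told apart. The summed signal of the 12 astrocyte and Bergmann glia markers was 61632.9 on the granule array, 43250.6 on the Sox1 array, 16631.8 on the HB9-GFP-labelled array and 17041.4 on the ES array. The medians over these markers were 2756.1, 161.8, 46.9 and 40.2 in the same order. Fabp7 (21466.0) and Gja1 (20117.7) made up most of the Sox1 sum, and Gja1 most of the sums on the HB9-GFP-labelled (14483.4) and ES (14463.1) arrays. Aqp4, the astrocyte water channel, stood at 8741.8 on the granule array and at 36.6 or less on the others. The summed signal of the 8 oligodendrocyte markers was 34195.7, 1449.0, 3198.1 and 3298.6 in the same order of arrays, with the myelin gene Mbp at 16565.0 on the granule array. The 14 granule neuron markers summed to 78326.2, 28839.3, 1386.5 and 2631.8. Meis2, the brightest of them on the Sox1 array at 10527.4, was undetected on the granule array, at 65.2. It was called lower on the granule array than on both the Sox1 and ES arrays. No marker in these lists was at 0. The part of glia in the NFI signals was not tested.

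Between the arrays without granule cells the members differed in where they were detected. For Sox1 minus ES 0 of 4 members were called in either direction, beside 3.70% of all genes higher and 3.09% lower. Nfia was detected on the Sox1 array, by 1 of its 6 probe sets, and not on the ES array (274.4 against 47.3, at least 3.48-fold higher). Nfib was detected on the ES array and not on the Sox1 array (48.5 on the Sox1 array against 169.9, at least 2.16-fold lower). Both folds are bounds against the low level, so a change of 4-fold or more is neither called nor shown to be absent. Nfic and Nfix were undetected on both arrays. For Sox1 minus the HB9-GFP-labelled array 2 of 4 members were lower, beside 3.30% of all genes, and 0 of 4 higher, beside 4.08%. These were Nfic, with 87.3 on the Sox1 array against 771.2, and Nfix, with 4.2 against 514.9, at least 6.54-fold lower. Both were undetected on the Sox1 array, and no fold is given for Nfic.

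On the HB9-GFP-labelled array Nfix and Nfic were called higher than on the ES array, 2 of 4 members beside 1.15% of all genes. Nfix read 514.9 against 79.8 on the ES array and Nfic 771.2 against 131.6, and no fold is given because both ES signals were undetected, while 0 of 4 members were lower, beside 0.857% of all genes. The call for Nfix did not extend to its other probe set of the same source, which read 385.7 against 108.7. The remaining 3 sets of Nfix and 4 of Nfic were undetected on both arrays. Centring the arrays on reference genes, which shifted the median of all probe sets in this comparison by -0.86 log2 units, ended both calls. Hprt, 1 of these reference genes, read 8529.3 on the HB9-GFP-labelled array and 90.3 on the ES array. Without Hprt the same centring shifted the median by -0.05 log2 units and kept both members past 4-fold by the call rule.

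Fibroblast genes moved in the same comparison. Of 12 fibroblast markers 9 were called higher on the HB9-GFP-labelled array than on the ES array and 0 lower, beside 1.15% and 0.857% of all genes. Their median difference was 4.19 log2 units, beside 0.0 over all genes. Their summed signal was 27426.6 on the HB9-GFP-labelled array and 1277.9 on the ES array, with 11 and 2 detected. Mgp, a matrix protein gene, stood at 6205.5 against 70.7, and Col3a1, a collagen gene, at 6165.2 against 20.6. None of the fibroblast markers was at 0 on the ES array, where the lowest was 9.5. On the granule array 7 fibroblast markers were detected, with a sum of 5433.8, beside 9558 of all 18193 genes. On the Sox1 array 2 were detected, with a sum of 1329.7, beside 9383 genes. Nfia was undetected on the HB9-GFP-labelled array, at 116.3. Nfib read 157.1 there in its representative set, just under detection, and was detected by 2 other sets, at 252.7 and 201.0, beside 302.6 and 242.4 on the ES array. The part of fibroblast RNA in the Nfix and Nfic signals was not tested. Nfic and Nfix were called higher than ES on both this array and the granule array, as were 0.357% of all genes. Over both the Sox1 and ES arrays, these 2 members were called higher on both, as were 17 genes in all or 0.0934%.

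**Figure D3:**
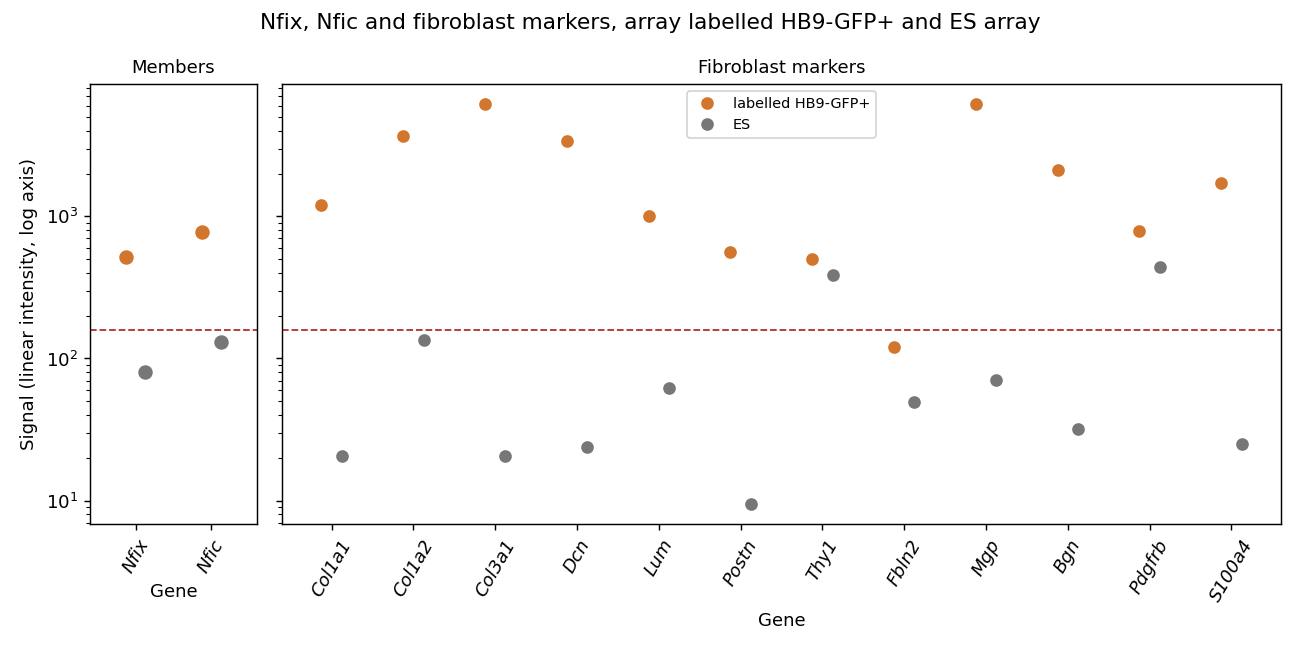
Signals (linear intensity, log axis) of Nfix and Nfic (left) and of the 12 fibroblast markers (right) on the HB9-GFP-labelled array and the ES array, 1 point per array; the dashed line is the detection level of 157.5. Both members and 11 of 12 markers lie above the detection level on the HB9-GFP-labelled array, and 2 markers do on the ES array.

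Genes that act on NFI genes or with NFI proteins were followed from a list of 8, of which 7 were measured. For granule minus ES 2 were called higher and 1 lower, beside 7.15% and 5.09% of all genes. For granule minus Sox1 1 was higher and 1 lower, beside 3.89% and 2.14%. The higher ones against ES were Olig2, a factor of the oligodendrocyte and motor neuron lineages, and Sox9, the glial determinant that induces Nfia in the developing mouse spinal cord. Sox9 stood at 740.5 on the granule array, 450.5 on the Sox1 array, 118.9 on the HB9-GFP-labelled array and 9.4 on the ES array. It was detected on the same 2 arrays as Nfia, though at like levels on both, with 0.72 log2 units between them. Olig2, at 896.0, 78.2, 320.6 and 0.9 in the same order, was detected on the same arrays as Nfix and Nfic. The lower one was Rest, the repressor of neuronal genes, at 175.0 on the granule array, 1546.0 on the Sox1 array, 4585.7 on the HB9-GFP-labelled array and 4814.7 on the ES array. Notch1, a receptor whose signalling induces Nfia in neural precursors, and its nuclear effector Rbpj were called in neither granule comparison. Pou3f2, a POU family transcription factor, read 269.7, 697.9, 14.4 and 44.4 on the granule, Sox1, HB9-GFP-labelled and ES arrays, and was likewise called in neither. Its 3 probe sets differed by between -2.07 and 0.15 log2 units for granule minus Sox1, and the call rests on the representative one.

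Of 12 genes linked with NFI in glia and neural progenitors 6 were called higher and 0 lower for granule minus ES (all genes 7.15% and 5.09%), with a median of 1.54 log2 units, beside 0.0 over all genes. For granule minus Sox1 5 were higher and 1 lower (all genes 3.89% and 2.14%), with a median of 1.48. Gfap, Aqp4, Fabp7, Slc1a3 and Aldh1l1, all higher against ES, are also on the astrocyte and Bergmann glia list. These counts are therefore not separate from the glial markers described above. The astrocyte filament gene Gfap was at 2224.6 on the granule array and 73.8, 45.9 and 13.4 on the Sox1, labelled HB9-GFP+ and ES arrays. Aqp4, Mmd2 and the glutamate transporter gene Slc1a3 were also higher in both comparisons, as was Aldh1l1, an astrocyte marker. Mmd2, a target of Nfia and Sox9 in the mouse spinal cord, was at 2650.7 on the granule array and 81.3 or less elsewhere. Fabp7, the radial glia fatty acid binding protein, did not follow the members on the Sox1 array, with 17695.0 on the granule array and 21466.0 on the Sox1 array, against 47.9 on the HB9-GFP-labelled array and 43.7 on the ES array. The lower gene was Hes1, a Notch effector that Nfia represses, at 69.9 on the granule array and 510.2 on the Sox1 array. Ezh2, which encodes a Polycomb enzyme and is repressed by Nfib in the mouse cortex, was at 5697.9, 7442.3, 5710.8 and 6281.1 in the usual order of arrays, and was not called. Apcdd1, a further spinal cord target of Nfia, differed by 0.84 log2 units for granule minus ES and was not called.

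Of 6 genes linked with NFI in granule neurons 2 were higher and 0 lower for granule minus ES, with a median of 0.39, beside 7.15% and 5.09% of all genes. For granule minus Sox1 1 was higher and 1 lower, beside 3.89% and 2.14%. Cntn2, the axonal adhesion gene of newly postmitotic granule neurons, stood at 3303.6 on the granule array, 51.7 on the Sox1 array, 19.4 on the HB9-GFP-labelled array and 31.3 on the ES array. Its 3 detected probe sets differed by between 1.63 and 5.39 log2 units for granule minus ES. Cdh2, encoding N-cadherin, was at 5405.5, 9286.4, 169.1 and 68.5 in the same order, so it was bright on the Sox1 array, where NFI members other than Nfia were undetected. Gabra6, the GABA receptor subunit of mature granule neurons, did not reach detection on any array, with 79.9 on the granule one, and neither did Grin2c, an NMDA receptor subunit gene. The signalling gene Wnt7a was at 132.4 on the granule array and 847.8 on the Sox1 array, and was the lower member. Efnb1, an ephrin gene, was at 324.2 and 753.1 on these arrays and was not called.

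The Cntn2 promoter is shown as that of a linked gene of granule neurons detected on the granule array alone. Gfap, Mmd2 and Insc, from the list of glia and progenitors, were also detected there alone. Their windows held 0, 1 and 1 cores, so Cntn2 does not stand for such genes. The 250 bases before its start (chr1:132542941-132543190, minus strand, GRCm38.p6) hold GCCAA beginning 154 bases and TTGGC beginning 23 bases before the start, in capitals.
Cntn2: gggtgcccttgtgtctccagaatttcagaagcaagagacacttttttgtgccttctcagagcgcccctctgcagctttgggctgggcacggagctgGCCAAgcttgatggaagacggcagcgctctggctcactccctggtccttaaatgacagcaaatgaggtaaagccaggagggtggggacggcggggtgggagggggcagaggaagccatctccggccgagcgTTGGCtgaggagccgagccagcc
Over the 3 linked lists 19 of 26 genes matched a RefSeq window, and 12 of the 19 held the core, beside 50.4% of all genes with a window. None held the full palindrome.

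**Figure D4:**
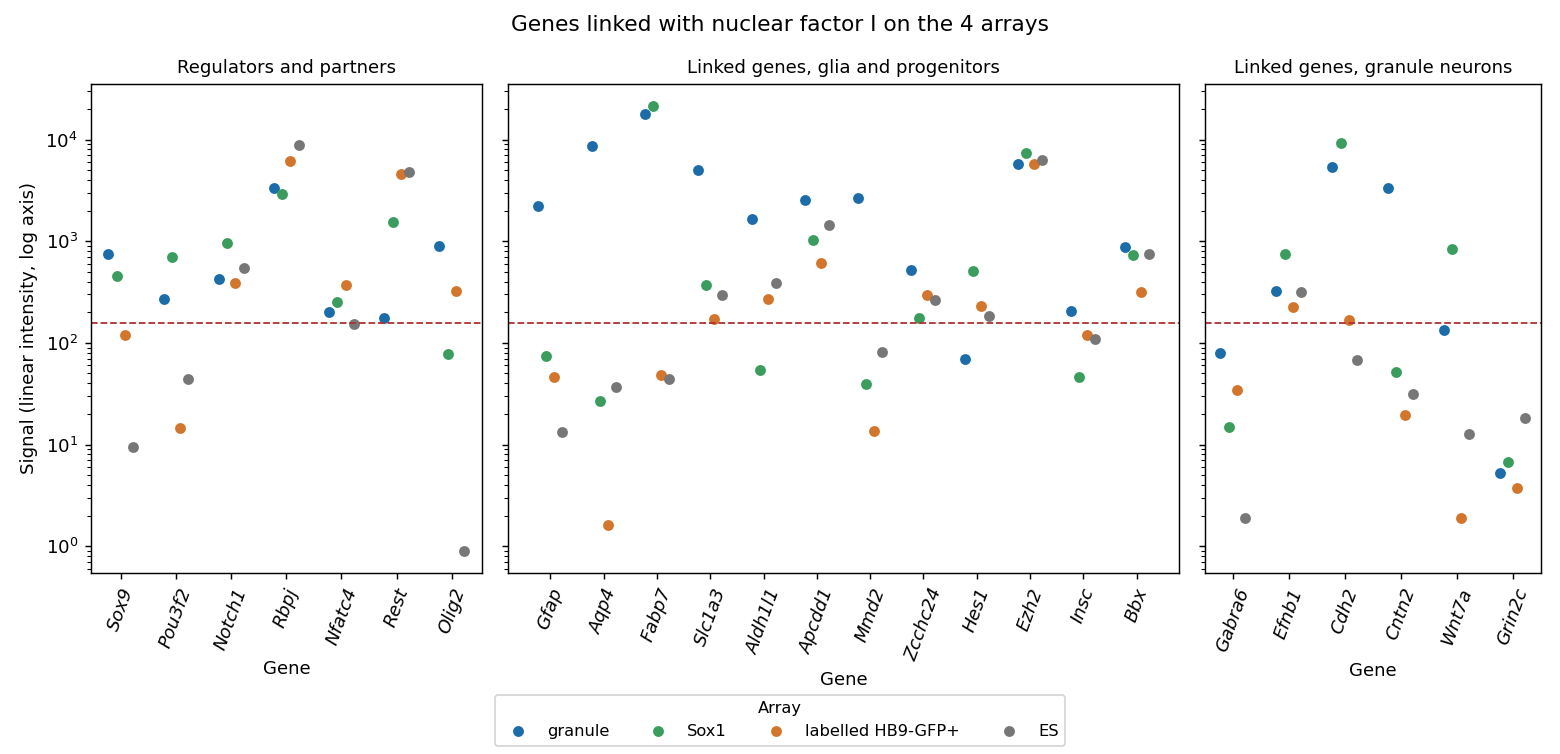
Signals (linear intensity, log axis) of 7 regulators and partners, 12 linked genes of glia and progenitors and 6 linked genes of granule neurons, with points in the order granule, Sox1, labelled HB9-GFP+ and ES for each gene; the dashed line is the detection level of 157.5. Gfap, Aqp4, Mmd2, Insc and Cntn2 are detected on the granule array alone, and Fabp7 and Cdh2 are about as bright on the Sox1 array.

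The genes whose profile over the 4 arrays lay nearest to each member were found among 3607 genes with a range of at least 2 log2 units. The measure was the Euclidean distance in log2 signal, with values under the low level set to it and each gene centred on its own mean. Genes under the low level on every array but the granule one, such as Aqp4, are thus placed by their granule signal alone. The granule signals of Nfia and Nfib were used in the choice of the family. Nearest to Nfia were Cadps2 at a distance of 0.44, Ppp1r14c at 0.73, St18 at 0.84, Sparcl1 at 0.86 and Mbp at 1.03. Nearest to Nfib were Aqp4 at 0.87, Sphkap at 1.25, Sparcl1 at 1.36, Mndal at 1.41 and Pcp4 at 1.48. Sparcl1 was thus named for both, with 9634.3 on the granule array and at most 118.5 elsewhere. Nearest to Nfix were Rpgrip1 and Olig1 at 1.83, Tmem178 at 1.96, Nfib at 2.02 and Tnik at 2.06. Nearest to Nfic were Kcnj11 at 0.37, Tnc at 0.63, Car8 at 0.78, Olig2 at 0.86 and Tmem267 at 0.92. Among the members the closest pair was Nfib and Nfix, at 2.02, and the most distant Nfia and Nfic, at 4.33. With 4 arrays many genes share a like profile, so these distances are a description.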

How the data were processed

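RNA extracted with Trizol gave biotinylated cRNA for 4 Affymetrix arrays, per the labels. The deposited values are linear intensity values of 45101 probe sets, from 0.1 to 43110.3. GCRMA is named, with no version or role, per the submitters' processing notes. Each deposited array has a mean intensity of 500.0 after trimming 2% at each end, so the step that made the values is uncertain and the arrays were forced to a common average. Genes were named from the platform's annotation table (34945 probe sets with 1 symbol, 932 with several and 9211 with none, a further 13 with 1 symbol being control probe sets, which enter no gene).

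Computation used Python 3.11.15, pandas 2.3.3 and numpy 2.4.6. The call rule was run on simulated data with planted differences and noise smaller than the spread among probe sets of a gene. That run checks the computation only and gives no error rate for these arrays. Signals were put on the log2 scale, with values below the low level (6.30 log2 units, the mean of the arrays' medians) set to it. A fold against an array at or below the low level is a bound, and for a dimmer signal above the low level but undetected, both signals are given and no fold. Groups follow the labels, and 6 comparisons of 2 arrays were made, which share arrays. With 1 array per group no p-value was computed, and the number of arrays limits the precision. Technical spread was read from 18 hybridisation control probe sets (SD of the differences 0.06 to 0.11) and from the probe sets of a gene (pooled SD 0.56 to 0.85). Neither holds biological variation. The members, lists and alternatives were chosen with earlier results of these data known. All members and all their probe sets are described. Of the linked lists, called members of the granule comparisons are named, up to 6 a list, and other members were added after their values were seen. The 5 nearest genes are named per member. No coordinates are given for probe sets, since the array annotation names no build.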

Additional observations from a re-analysis of the deposited data

How the results depend on the processing

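For granule minus ES and granule minus Sox1 the count of NFI members called higher, 4, was 3 with the mean over all probe sets. It was 4 under every other alternative. For granule minus the HB9-GFP-labelled array the count, 3, was 4 with centring on the reference genes and with a minimum of 1 log2 unit, and otherwise 3. No called difference changed sign, but a difference brought to 0.00 was not counted as a change. The choice of the family used these contrasts, so nothing is read from these counts. The counts between the other arrays were less stable. For the HB9-GFP-labelled array minus ES, the count of members called higher, 2, was 0 with centring on the reference genes, with a minimum of 3 log2 units and with the mean over all or over detected probe sets. It was 1 with the low level 1 log2 unit higher and 1 with the probe set chosen by mean log2 signal. With Hprt left out of the reference genes it stayed at 2. For Sox1 minus ES, the count called higher, 0, was 1 with centring on the reference genes, with the low level 1 log2 unit lower, with log2(signal + 16) and no low level, and with a minimum of 1 log2 unit, which also gave 1 called lower. For Sox1 minus the HB9-GFP-labelled array, the count called higher, 0, was 1 with centring on the reference genes and with a minimum of 1 log2 unit. The count called lower there, 2, was 1 with the low level 1 log2 unit higher and with a minimum of 3 log2 units, and 0 with the mean over all or over detected probe sets. The cause was not tested. Centring on reference genes also moved the share of all calls that were higher for the HB9-GFP-labelled array minus ES to 8.33% (73 higher and 803 lower), against 57.4% (210 and 156), and quantile normalization moved it to 67.9%. Centring without Hprt gave 53.3% (186 and 163). For granule minus ES that share was 58.4% and, with reference genes other than Hprt, 77.0% (2000 higher and 598 lower). For granule minus Sox1 the same change gave 82.6% against 64.5%. Centring on all reference genes gave 80.7% against 57.8% for granule, and 84.2% against 55.2% for Sox1, each minus the HB9-GFP-labelled array. Without Hprt these shares were 78.2% for granule and 58.1% for Sox1. The mean over all probe sets, which includes the 6 NFI sets undetected on every array, gave 781 genes higher for granule minus ES against 1301, and differences of 3.40 for Nfia, 4.83 for Nfib, 4.23 for Nfix and 0.00 for Nfic. Of the member differences under other settings 151 moved by less than the pooled SD among probe sets of a gene and 65 by more. With another probe set of the gene 33 moved by less and 81 by more. The choice of the probe set with the highest mean log2 signal, the counts of members called lower, the count of members set apart and the leaving out of the HB9-GFP-labelled array were added after seeing the data. No paired analysis was possible because each group has 1 array. A signal under 157.5 sets no order between arrays.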
